A study of Mus musculus with 48 samples.

Results

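Of the 46983 genes counted in this series, 8 long noncoding RNA genes were followed here across all 48 libraries and 11 groups. They were chosen by name (Malat1, Neat1, Meg3, Miat, Snhg11, Gas5, Snhg1 and Rian), and the Ensembl identifiers of the count tables were matched to symbols of Gencode vM21. All 8 passed the filter of more than 10 counts in total that left 19970 genes for testing. Ranked by mean CPM (counts scaled by TMM to the same library total) over the 48 libraries, Meg3 was the gene of rank 2 (12226 CPM), Malat1 of rank 4 (8147 CPM) and Snhg11 of rank 7 (3944 CPM). Gas5 (rank 714, 261 CPM), Rian (rank 1181, 176 CPM), Miat (rank 1190, 175 CPM) and Neat1 (rank 1561, 142 CPM) followed at a moderate level. Snhg1, at rank 6477 and 27.6 CPM, went against the name of abundant. The kit reads about 1 fragment near the 3′ end of each polyadenylated molecule, so these levels were not divided by transcript length. They are not counts of molecules, since tails were not measured and the kit can also prime on runs of A inside a transcript.

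The libraries were made from brain of male C57Black/6 mice, 3 months old, and address the response to an ischemic lesion over the first week. MCAO denotes permanent occlusion of the middle cerebral artery, by coagulation and transection of the vessel, and was sampled at 3 h, 12 h, 24 h, day 3 and day 7 (4 libraries at 24 h, 5 at each other time). Sham animals had the same surgery without coagulation (4 libraries at each of the 5 times), and the control group was intact cortex (4 libraries). No group carried a mutation or a transgene. Lesions in this model are small, and the tissue taken held affected and unaffected parts, so a library mixes lesion, its border and its surroundings. The labels name the injured cortical region as the tissue, while the series description names forebrain hemispheres. The study counts its bulk replicates as mice, but the labels tie no library to a mouse, and p-values measure the spread between these libraries.

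A long noncoding RNA is a long transcript that is not known to be translated into a functional protein. Malat1 and Neat1 are transcribed from neighbouring genes and stay in the nucleus, Malat1 in the nuclear speckles that hold splicing factors and Neat1 as the scaffold of paraspeckles, which only its long form can build. Meg3 and Rian are expressed from the maternal chromosome of the imprinted Dlk1-Dio3 domain, Miat is a nuclear RNA of neurons, and Snhg11, Gas5 and Snhg1 are host genes, whose introns are cut down to small nucleolar RNAs (snoRNAs) that guide chemical modification of ribosomal RNA. The spliced Gas5 RNA is short-lived, because its translation by ribosomes triggers nonsense-mediated decay.

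The kit primes on poly(A) tails, so the counts depend on where each RNA ends and on whether it carries a tail. Tails were not measured here, and a signal in an annotated transcript does not show one. The last 50 bases of annotated transcripts (Gencode vM21, GRCm38, read 5′ to 3′) are shown for both forms of Neat1, which differ in their ends, and for 6 of the other members. For those 6, the transcript shown is the one ending farthest downstream among those that hold a poly(A) signal, so the signal in it is there by choice. Capitals mark the poly(A) signal AATAAA or ATTAAA, searched on the transcribed strand in the last 40 bases.
Neat1-202, short form of 3004 bases, chr19:5842307-5842356, minus strand: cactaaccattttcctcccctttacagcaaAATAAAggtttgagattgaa
Neat1-201, long form of 20771 bases, chr19:5824708-5824757, minus strand: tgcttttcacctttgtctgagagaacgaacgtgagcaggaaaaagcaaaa
Malat1-201, chr19:5795690-5795739, minus strand: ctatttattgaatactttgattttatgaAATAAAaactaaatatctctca
Meg3-209, chr12:109571677-109571726, plus strand: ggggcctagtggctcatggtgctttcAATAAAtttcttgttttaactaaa
Rian-202, chr12:109661667-109661716, plus strand: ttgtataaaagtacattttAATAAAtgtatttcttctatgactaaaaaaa
Miat-205, chr5:112213228-112213277, minus strand: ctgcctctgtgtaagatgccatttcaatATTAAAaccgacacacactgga
Gas5-218, chr1:161038490-161038539, plus strand: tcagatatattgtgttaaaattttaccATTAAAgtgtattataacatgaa
Snhg1-214, chr19:8726394-8726443, plus strand: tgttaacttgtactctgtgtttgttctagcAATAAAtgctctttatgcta
The signal began 20 bases before the end of the short Neat1, and neither hexamer was in the last 40 bases of the long form. Among the annotated transcripts of each gene, a hexamer was in that window for 1 of 4 of Neat1, 3 of 4 of Malat1, 4 of 11 of Meg3, 4 of 20 of Rian, 2 of 6 of Miat, 17 of 25 of Gas5 and 10 of 18 of Snhg1, and for 32.6% of all 141767 transcripts. The counts are per gene and cannot tell the Neat1 forms apart. Malat1-201 also held a run of 12 A and Meg3-209 a run of 16 A inside the transcript, where an oligo-dT primer can bind.

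Malat1 (ENSMUSG00000092341.2, chr19:5795690-5802672, minus strand) and Neat1 (ENSMUSG00000092274.2, chr19:5824708-5845478, minus strand) are annotated as long intergenic RNAs, as are Meg3 (ENSMUSG00000021268.17, chr12:109541001-109571726, plus strand) and Miat (ENSMUSG00000097767.8, chr5:112213228-112229395, minus strand). Gas5 (ENSMUSG00000053332.13, chr1:161034422-161038539, plus strand), Snhg1 (ENSMUSG00000108414.1, chr19:8723475-8726443, plus strand) and Rian (ENSMUSG00000097451.9, chr12:109603940-109661716, plus strand) are annotated as processed transcripts. Snhg11 (ENSMUSG00000044349.15, chr2:158375638-158386145, plus strand) is annotated as a protein-coding gene in vM21, against its usual name of a noncoding host gene. On their own strand, Gas5 encloses 10 annotated snoRNA genes, Snhg1 8, Snhg11 2 and Rian 13 with 4 miRNA genes, and Meg3 encloses 2 miRNA genes. Malat1, Meg3, Miat and Gas5 each overlap 1 gene on the opposite strand. The strand setting of the counting is not given in the sources used here, so reads of these pairs may be shared.

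Each library held 1522668 to 2826735 counts on genes, with a median of 1935856, and no 2 libraries held identical values. Member counts were 9234 to 34167 per library for Malat1, 15774 to 43795 for Meg3 and 4771 to 14664 for Snhg11. They were 315 to 948 for Gas5, 231 to 589 for Rian and 103 to 636 for Miat (median 339). Neat1 had 112 to 737 (median 245) and Snhg1 25 to 140 (median 45), so counting error weighs most on Snhg1. The share of alignments without an annotated feature ran from 21.6% to 31.3% (median 24.0%), highest in MCAO 12 h E and A. Replicates are named here by the letters of the labels. The summed level of 12 neuron markers was 12720 to 16754 CPM in the sham groups, and no marker of that list was at 0 in any group. Those markers do not separate cortex from striatum. The sum of 9 striatum markers ran from 189.8 to 4559 CPM over all libraries, and from 301 to 4559 CPM within MCAO at 24 h.

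Relative to sham, Neat1 rose at day 3 and as a mean over the times. Snhg11 was lower than sham at day 7, and Snhg1 was higher as a mean over the times. These changes are read against the sham group of the same time. Calls required a log2 fold change beyond 0.58 in either direction and, in edgeR's quasi-likelihood test, an adjusted p under 0.01 (Benjamini-Hochberg over all genes). Of the 8 members, 0 were called at 3 h, where 0.11% of all genes tested were, 0 at 12 h (0.411% of all genes) and 0 at 24 h (0.0901%). At day 3, 1 member was called (4.02% of all genes) and at day 7 another (3.5%). In each of these 5 comparisons, 3 members had an unadjusted p under 0.05, as did 8.45%, 14.6%, 8.80%, 21.6% and 23.5% of all genes in time order. The contrast of the mean MCAO with the mean sham level, each time weighted equally, called 2 members, against 4.89% of all genes. In bulk tissue, fewer cells of a type and less RNA per cell cannot be told apart.

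**Figure D1:**
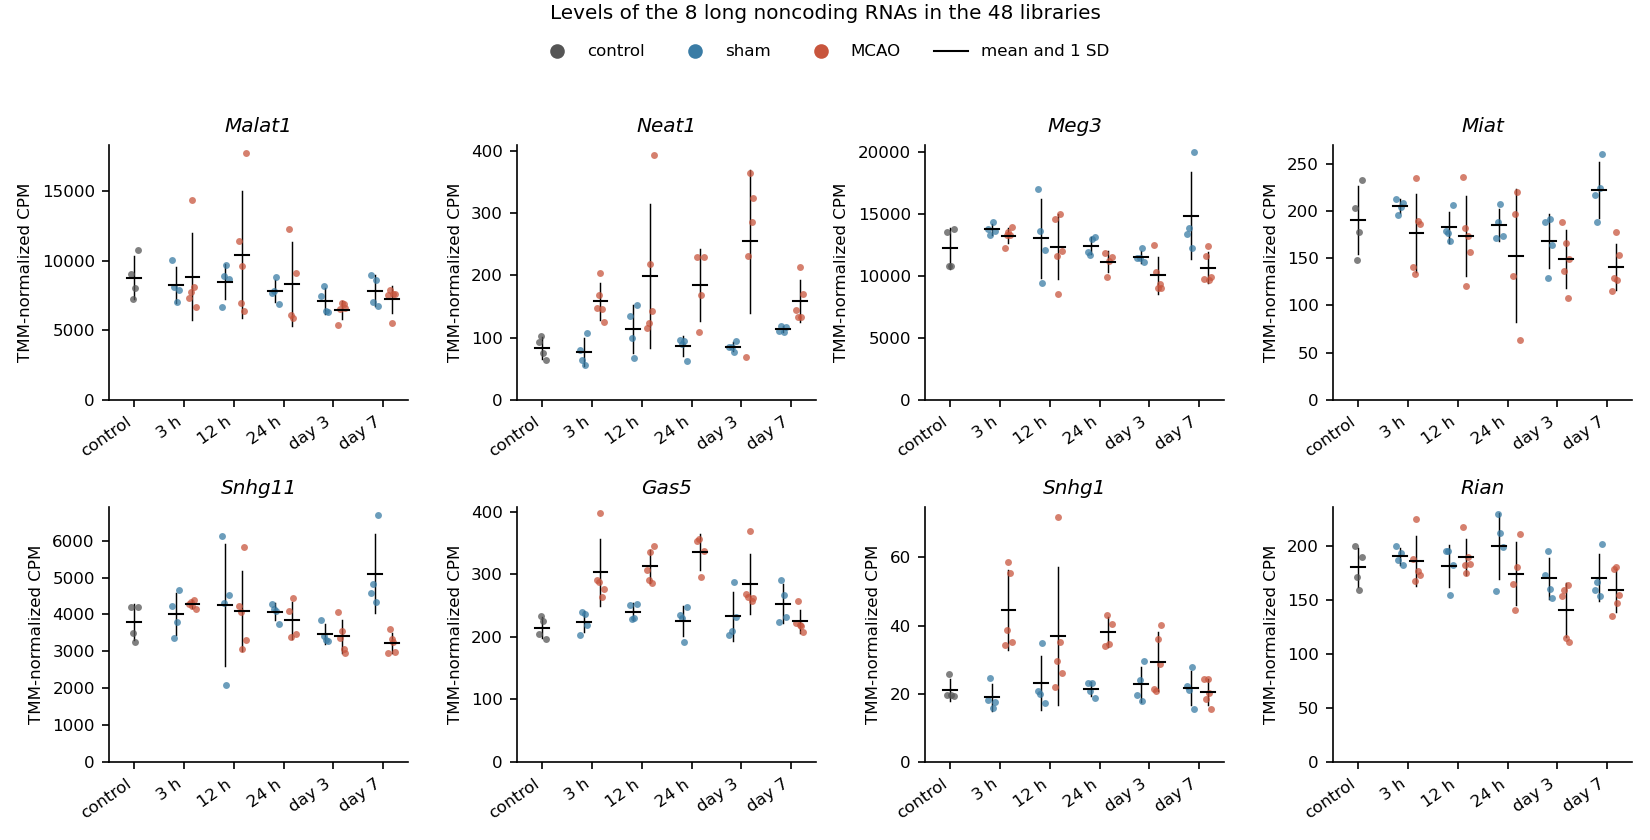
Levels of the 8 RNAs in all 48 libraries. The vertical axes give TMM-normalized CPM from 0, the horizontal axis lists control and the 5 times, points are libraries (gray control, blue sham, red MCAO), and black lines give the mean and 1 SD. Neat1 in MCAO libraries at day 3 spreads from 69.4 to 365 CPM above a sham range of 77.1 to 94.6 CPM in all but 1 library, while Meg3 and Rian overlap between sham and MCAO at every time.

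Neat1 had 63.9, 75.1, 93.2 and 103 CPM in the 4 control libraries. At 3 h it had 56.5, 64.5, 79.5 and 108 CPM in sham and 125.7, 146, 148, 169 and 203 CPM after MCAO. Every MCAO library of 3 h was above every sham library of that time. At 12 h the sham libraries had 67.3, 100.1, 135 and 153 CPM and the MCAO libraries 116, 124, 144, 218 and 393 CPM, with overlap. At 24 h sham had 61.9, 90.4, 94.5 and 96.2 CPM and MCAO 109, 168, 229.8 and 229.9 CPM, again apart. At day 3 sham had 77.1, 84.1, 85.4 and 94.6 CPM, while MCAO had 69.4, 230.5, 286, 325 and 365 CPM. The other 4 day 3 MCAO libraries were far above the highest sham, and replicate A was below the lowest. At day 7 sham was narrow (109, 111, 118 and 118 CPM) and MCAO lay above it (132, 134, 145, 170.3 and 214 CPM).

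These levels gave log2 fold changes of MCAO over sham of 1.04 ± 0.30 (SE) at 3 h, 0.80 ± 0.30 at 12 h, 1.10 ± 0.31 at 24 h, 1.58 ± 0.30 at day 3 and 0.48 ± 0.30 at day 7. Only the difference of day 3 was called among these 5 (adjusted p = 0.000302, group means 255 ± 115 CPM, SD, n = 5, and 85.3 ± 7.21 CPM, n = 4). The adjusted p of edgeR was 0.147 at 3 h, 0.172 at 12 h, 0.145 at 24 h and 0.331 at day 7. Averaged over the times, Neat1 rose by 1.00 ± 0.13 on the log2 scale (adjusted p = 2.49e-07, called). Of the 24 MCAO libraries, 13 were above all 24 libraries without MCAO, whose highest value was 153 CPM. Neat1 was also the only member with a step in the order of its group means larger than the SDs of both neighbours, between MCAO at 3 h (158 CPM) and sham at day 7 (114 CPM). All 5 MCAO groups were above that step and the 6 other groups below it.

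Markers of other cells moved with Neat1. The summed level of 11 microglia and macrophage markers in the day 3 MCAO libraries was 919 CPM in A, the library with the lowest Neat1, 1977 CPM in B, 2439 CPM in D, 3567 CPM in E and 3902 CPM in C, which was also the order of Neat1 in the same libraries. In sham at day 3 that sum was 402 to 505 CPM, and 9 of the 11 markers were higher at day 3. Neuron markers summed to 9870 to 14530 CPM (MCAO, day 3) and 14349 to 15898 CPM (sham), with 1 of 12 called lower. At 3 h, the microglia and macrophage sum was 435 to 549 CPM in MCAO and 441 to 575 CPM in sham, with 0 of 11 called, while all 5 Neat1 values were above sham. With the mean neuron marker level as a covariate, the day 3 difference of Neat1 was 1.37 (adjusted p of edgeR 0.0486) and lost its call. The same covariate lowered the number of all genes called at day 3 from 802 to 51, so the lost call is not particular to Neat1. Without the covariate, Neat1 kept its call when each library was left out in turn (1.41 to 1.82). The sum of 8 endothelial markers in the day 3 MCAO libraries was 290.4 CPM in A, 406 CPM in D, 465 CPM in B, 690.1 CPM in E and 708 CPM in C, nearly the order of Neat1, against 299.9 to 345 CPM in sham. The sum of 8 granulocyte markers was 1718 CPM in MCAO 12 h E, the library with the highest Neat1 and Malat1, against 12.2 to 177 CPM in the other 4 of that group. Beyond the neuron covariate, the part of these cells in the Neat1 difference was not tested.

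Of 14 genes of paraspeckle proteins tested, among them those of the core proteins SFPQ and NONO, 0 passed in any MCAO comparison, with medians from -0.02 to 0.17 on the log2 scale against sham.

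**Figure D2:**
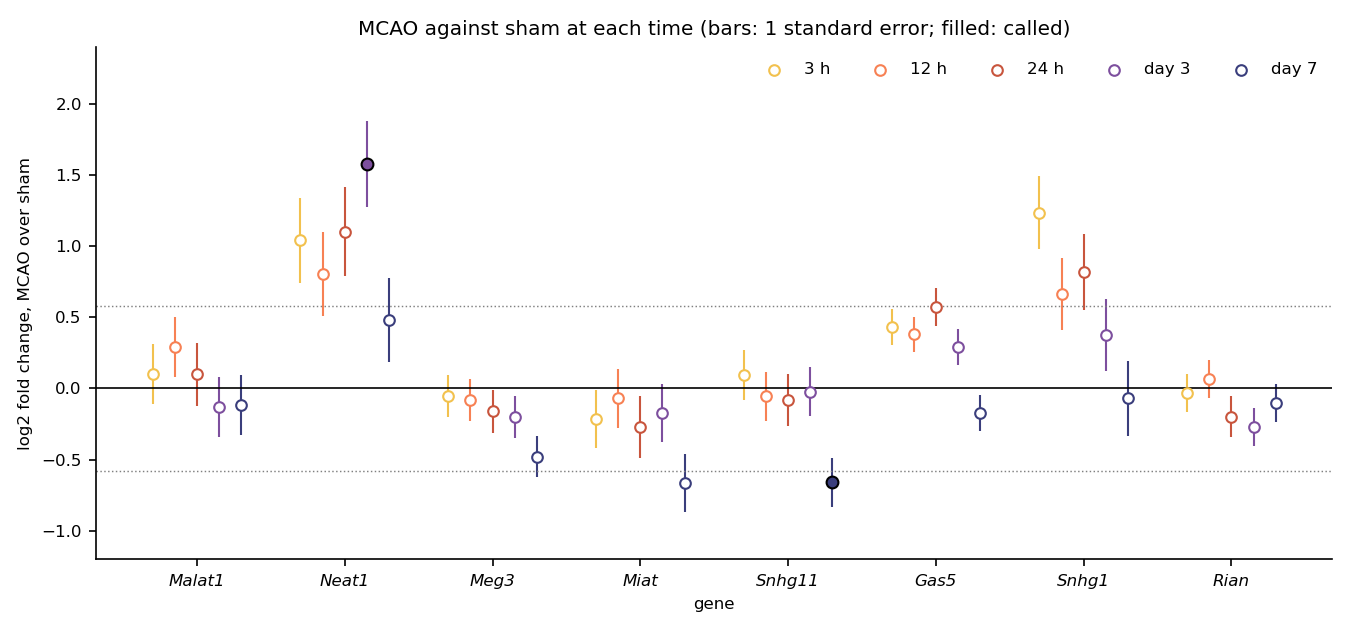
Log2 fold changes of MCAO over sham for each RNA at the 5 times. Points are edgeR estimates, bars 1 standard error, filled points are called, and dotted lines mark 0.58 in either direction. Filled points are Neat1 at day 3 (1.58) and Snhg11 at day 7 (-0.66), and Gas5 and Snhg1 lie above 0 up to day 3 and below it at day 7.

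No difference in Malat1 between MCAO and sham passed the test at any time, but single MCAO libraries had high levels. At 3 h the MCAO libraries had 6668, 7307, 7786, 8116 and 14333 CPM, and the sham libraries 7006, 7861, 8074 and 10021 CPM. At 12 h MCAO had 6369, 6947, 9619, 11429.9 and 17713 CPM and sham 6707, 8705, 8936 and 9669 CPM. At 24 h MCAO had 5897, 6115, 9080.0 and 12293 CPM and sham 6897, 7662, 7786 and 8818 CPM. The libraries 3 h C, 12 h A, 12 h E and 24 h A were the only 4 of the 24 MCAO libraries above all libraries without MCAO. These 4 were picked by their Malat1 level, and their shares of alignments without a feature were 26.6%, 28.6%, 31.3% and 25.96%, ranks 4, 2, 1 and 7 of the 48 libraries. The 3 other libraries with a share above 25.96% (sham 12 h C, MCAO 12 h C and sham 3 h A, at 27.2%, 26.5% and 26.4%) had 9669, 9619 and 10021 CPM. At day 3 MCAO ranged from 5376 to 6977 CPM (median 6576) and sham from 6318 to 8204 CPM, and at day 7 from 5494 to 7858 CPM (median 7595) and from 6754 to 8968 CPM. Log2 fold changes were 0.10 ± 0.21, 0.29 ± 0.21, 0.10 ± 0.22, -0.13 ± 0.21 and -0.12 ± 0.21 in time order (adjusted p of edgeR 0.559 or more), and 0.05 ± 0.10 for the mean over times.

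The Malat1 level followed the share of alignments without a feature, which counts among other things reads from introns and intergenic DNA. Over the 48 libraries Pearson's r was 0.81 and Spearman's rho 0.67 (permutation p = 1e-05 for each, the smallest that 100000 resamples can give, adjusted p = 8e-05 over 8 members). Without MCAO 12 h A and E, the farthest pair in that share, r was 0.707. The relation held in the 24 MCAO libraries (r = 0.854, rho = 0.659) and in the 24 others (r = 0.621, rho = 0.581, permutation adjusted p of r = 0.00848), and deviations from the group means gave r = 0.828. Rian had r = 0.416 over all libraries (rho = 0.489, permutation adjusted p = 0.0186), with 0.518 in MCAO libraries and 0.0802 in the others, so that it did not hold in both, and 0.429 without the same pair. The other 6 members had r between 0.04 and 0.20. In the MCAO libraries alone, Gas5 had r = 0.473 (permutation adjusted p = 0.0481). With the share as a covariate, the 12 h difference of Malat1 was -0.07, and the cause of the relation was not tested. Of 13 nuclear speckle genes, 0 were called in any MCAO comparison.

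**Figure D3:**
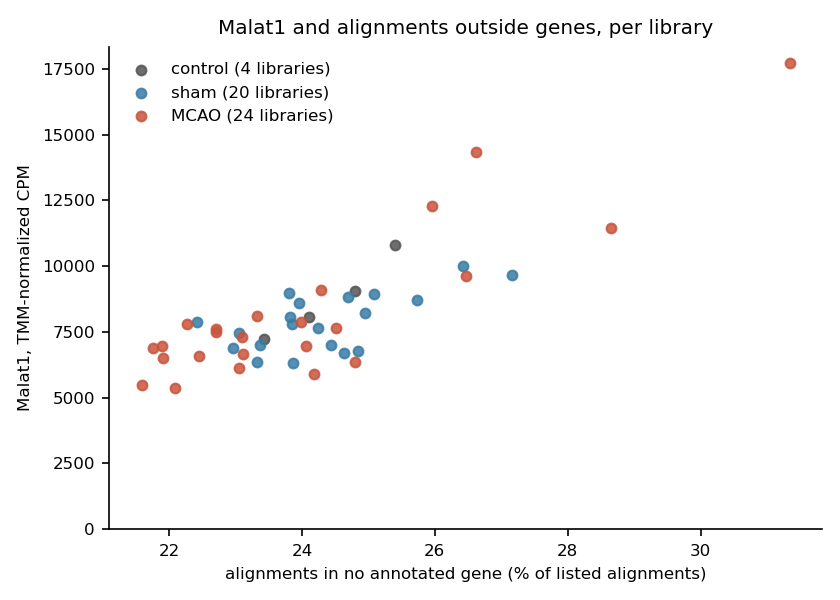
Malat1 level (TMM-normalized CPM, vertical axis) against the share of listed alignments without an annotated feature (percent, horizontal axis), 1 point a library, coloured by control, sham and MCAO. The library farthest to the right, MCAO 12 h E at 31.3%, also has the highest Malat1 level, 17713 CPM.

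A ratio within a library does not depend on its scaling, and the neighbours Neat1 and Malat1 were compared in this way. Malat1 followed the share of alignments without a feature (r = 0.81) and Neat1 did not (r = 0.05), so the ratio can still move with that share. The log2 ratio of Neat1 to Malat1 counts was higher after MCAO by 1.01 at 3 h (5 of 5 libraries above all sham, exact two-sided permutation p = 0.00794, the smallest possible for 5 against 4, adjusted p = 0.0397 over 10 tests). It was higher by 0.51 at 12 h (exact permutation p = 0.214), by 1.02 at 24 h (p = 0.0286, the smallest possible for 4 against 4, adjusted p = 0.0714 by the exact permutation test), by 1.52 at day 3 and by 0.58 at day 7 (exact permutation adjusted p = 0.0714 and 0.0952). Only the ratio of 3 h passed a threshold of 0.05 after adjustment. At day 3 and day 7, 4 of 5 MCAO libraries were above all sham libraries.

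**Figure D4:**
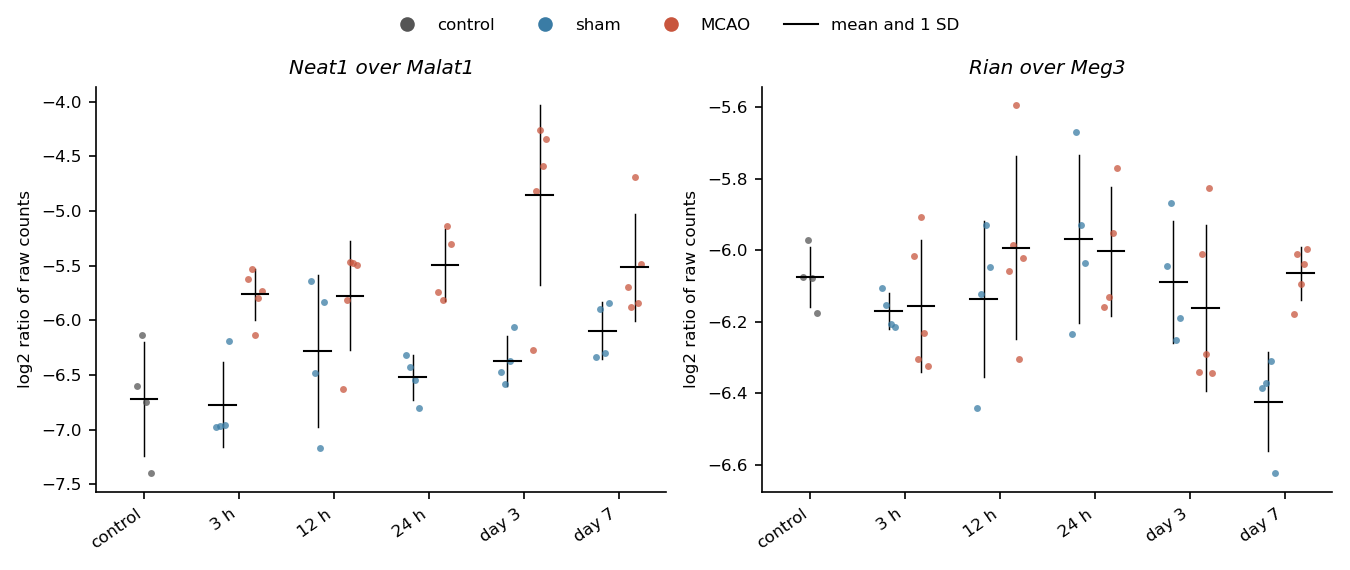
Log2 ratios of raw counts within each library, Neat1 over Malat1 and Rian over Meg3, in control, sham and MCAO libraries at the 5 times, with mean and 1 SD. The Neat1 to Malat1 ratio is higher in all 5 MCAO libraries than in all sham libraries at 3 h, and the Rian to Meg3 ratio at day 7, where the sham libraries are low.

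Gas5 was higher after MCAO at the early times and near sham at day 7. Control libraries had 196, 204, 226 and 233 CPM. At 3 h sham had 202, 219, 237 and 240.1 CPM and MCAO 264, 277, 287, 291 and 398 CPM. At 12 h sham had 228, 229.6, 251 and 253 CPM and MCAO 286, 292, 306, 335 and 345 CPM, and at 24 h sham had 192, 229, 235 and 247 CPM and MCAO 296, 337, 353 and 357 CPM. At these 3 times no MCAO library was as low as any sham library. At day 3 sham had 203, 209, 232 and 288 CPM and MCAO 258, 263, 263, 269 and 369.6 CPM, so that 1 sham library reached into the MCAO range. At day 7 sham (224, 231, 267 and 291 CPM) and MCAO (208, 217, 219, 222 and 258 CPM) overlapped.

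The differences of Gas5 from sham were small and did not reach the fold minimum. They were 0.43 ± 0.13, 0.38 ± 0.13, 0.57 ± 0.13, 0.29 ± 0.13 and -0.17 ± 0.13 on the log2 scale in time order, with adjusted p of 0.149, 0.119, 0.0428, 0.16 and 0.425 (edgeR). Their mean was 0.30 ± 0.06 with an adjusted p of 0.000121, past the threshold of p but under that of the fold. Against control, Gas5 rose at 24 h by 0.64 ± 0.13 (adjusted p = 0.0062, called, 336 ± 28.1 against 215 ± 17.5 CPM, SD, n = 4 and 4). That call was lost in 7 of 8 fits without 1 library, with values of 0.60 to 0.70 and adjusted p up to 0.0379.

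Snhg1, the host gene of lowest level among the members, had 19.4, 19.5, 19.8 and 25.9 CPM in control. At 3 h sham had 15.7, 17.4, 18.2 and 24.8 CPM and MCAO 34.4, 35.1, 38.7, 55.6 and 58.7 CPM. At 12 h sham had 17.1, 19.8, 20.7 and 34.8 CPM and MCAO 21.9, 26.2, 29.6, 35.3 and 72.0 CPM, and at 24 h sham had 18.9, 20.9, 23.2 and 23.2 CPM and MCAO 34.0, 34.7, 40.3 and 43.0 CPM. Sham and MCAO were apart at 3 h and 24 h and overlapped at 12 h. At day 3 MCAO was 20.8 to 40.1 CPM and sham 17.8 to 29.5 CPM, and at day 7 they were 15.7 to 24.4 and 15.5 to 27.8 CPM.

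The log2 fold changes of Snhg1 were 1.24 ± 0.26 at 3 h, 0.66 ± 0.25 at 12 h, 0.82 ± 0.27 at 24 h, 0.38 ± 0.25 at day 3 and -0.07 ± 0.26 at day 7. The 3 h difference, 44.5 ± 11.7 CPM (SD, n = 5) against 19.02 ± 3.97 CPM (n = 4), had an adjusted p of 0.0117 and just missed the call, which DESeq2 made on the same counts (1.25, adjusted p = 0.00113). The mean over the times was 0.61 ± 0.12 (adjusted p = 0.000147, called), close to the fold minimum. It fell under that minimum without MCAO 12 h C (0.52), sham 12 h D (0.58 after rounding), MCAO day 3 E (0.57) or sham day 7 D (0.57).

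Host genes of snoRNAs whose RNA starts with a pyrimidine run belong to a class whose translation follows growth signals, and Gas5 is a known case. The start regions of Gas5 and Snhg1, which shared the early course above, are shown from RefSeq (GRCm38.p6), 250 bases before to 50 after the start. Capitals mark the first 11 bases of the RNA and, in Gas5, the palindromic cyclic AMP response element TGACGTCA.
Gas5, downstream start, chr1:161034916-161035215, plus strand: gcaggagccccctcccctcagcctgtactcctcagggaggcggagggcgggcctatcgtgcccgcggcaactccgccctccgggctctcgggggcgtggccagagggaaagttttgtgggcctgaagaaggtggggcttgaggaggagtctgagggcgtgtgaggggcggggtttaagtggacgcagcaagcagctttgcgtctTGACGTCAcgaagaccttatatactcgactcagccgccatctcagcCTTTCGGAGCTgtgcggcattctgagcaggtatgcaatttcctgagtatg
Snhg1, chr19:8723237-8723536, plus strand: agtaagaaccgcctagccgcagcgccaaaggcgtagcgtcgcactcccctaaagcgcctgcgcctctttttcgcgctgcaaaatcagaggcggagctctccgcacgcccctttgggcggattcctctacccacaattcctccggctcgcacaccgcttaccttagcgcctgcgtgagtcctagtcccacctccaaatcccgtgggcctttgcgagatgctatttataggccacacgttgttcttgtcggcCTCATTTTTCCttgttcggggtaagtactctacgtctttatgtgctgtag
The Gas5 start read CTTTC, a C followed by at least 4 pyrimidines on the transcribed strand, which 2.51% of all 32851 windows held exactly at the start. The Snhg1 start, whose first bases are CTC before an A, did not meet that rule. The element TGACGTCA, the same on both strands, lay 46 bases before that Gas5 start and was in 1.79% of all windows. The window of the upstream Gas5 start (chr1:161034351-161034650) held neither, and the downstream one is shown because it holds both. RefSeq windows were found for 7 of the 8 members (9 windows). Miat also held the run and the upstream window of Meg3 also held the element. A match is a description of the sequence.

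Among all snoRNA host genes listed, 16 of 20 were tested, with a median log2 fold change of MCAO over sham of 0.25 at 3 h, 0.30 at 12 h, 0.53 at 24 h, 0.23 at day 3 and -0.06 at day 7. The median of all genes tested was 0.00, 0.01, 0.02, 0.01 and 0.06. None of the 16 was called at the first 4 times. At day 7 Snhg11 was called lower and Snhg6 higher, the latter from sham libraries with at most 3 counts each. The Snhg6 MCAO mean of 6.34 CPM was at least 4.14-fold higher than that floor per library, or 3.37-fold without replicate D. Its MCAO libraries of day 7 ran from 1 to 23 counts, and its sham mean at day 3 was 5.86 CPM. Zfas1 (0.26, 0.50, 0.56, 0.24 and 0.04) and Snhg5 (0.63, 0.35, 0.53, 0.57 and -0.59), host genes as well, were not called at any time and were named after their values were seen. Snhg5 had a mean of 11.2 CPM, and its standard errors were 0.32 to 0.34. Snhg14, a host gene with a mean of 254 CPM, went the other way (-0.19, -0.09, -0.21, -0.41 and -0.06). Snhg9, with a mean of 62.3 CPM, was higher at day 3 (0.98 ± 0.27, adjusted p of edgeR 0.0122). At the other times it was below 0 (-0.15, -0.25, -0.02 and -0.11). Neither Snhg14 nor Snhg9 was called, and both were also named after their values were seen. Of 10 nonsense-mediated decay factors, 1 was called, Smg9, lower at day 7 (-0.82 ± 0.21). Of 16 translation factors with 5′ oligopyrimidine messages, Rack1 was called higher at day 3 (0.97 ± 0.17) and Pabpc1 at day 7 (1.39 ± 0.28). Pabpc1 had 407 CPM after MCAO and 156 CPM in sham at day 7, the lowest mean of the 11 groups. At day 3 it had 554 CPM after MCAO and 318 CPM in sham.

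**Figure D5:**
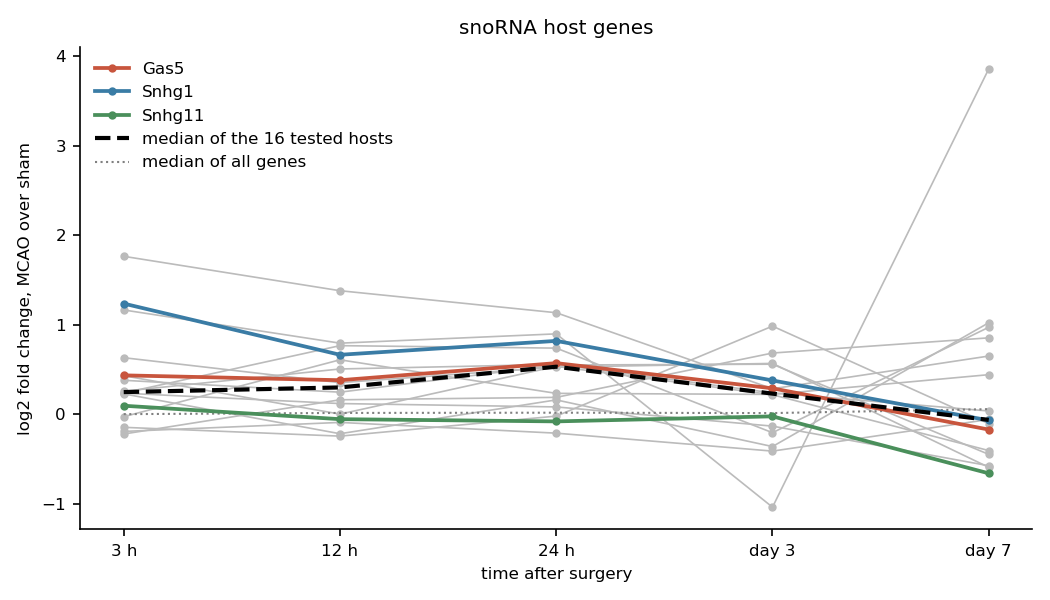
Log2 fold change of MCAO over sham at the 5 times for the 16 snoRNA host genes tested (vertical axis, lines), with Gas5, Snhg1 and Snhg11 in colour and the medians of the list and of all genes. The list's median runs from 0.25 at 3 h through 0.53 at 24 h to -0.06 at day 7.

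Snhg11, a host gene expressed mainly in the brain, was level with sham up to day 3 and lower at day 7. At day 7 sham had 4341, 4581, 4823 and 6690 CPM and MCAO 2962, 2988, 3257, 3333 and 3609 CPM. Every MCAO library was below every sham library, and 1 sham library, replicate D, was far above the other 3. Snhg11 was lower than in sham by 0.66 ± 0.17 on the log2 scale (adjusted p of edgeR 0.00954, called). The MCAO mean was 3230 ± 267 CPM (SD, n = 5) and the sham mean 5109 ± 1072 CPM (n = 4), the highest of the 11 groups. The call was lost in 8 of 9 fits that left out 1 library, with values of -0.52 (without sham D, adjusted p = 0.101) to -0.73. The control libraries, at 3256, 3492, 4199 and 4205 CPM, were all below the lowest sham library of day 7, and 2 of the 4 lay within the MCAO range. The difference of MCAO from control at day 7 was -0.23 ± 0.17 (adjusted p = 0.588).

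At the other times Snhg11 ranged from 4150.2 to 4401 CPM after MCAO and 3353 to 4672 CPM in sham at 3 h, from 3077 to 5834 and 2091 to 6117 CPM at 12 h, from 3386 to 4443 and 3744 to 4283 CPM at 24 h and from 2961 to 4079 and 3268 to 3864 CPM at day 3. The ranges overlapped each time, and log2 fold changes were 0.09, -0.06, -0.08 and -0.02. Neuron markers moved with the day 7 difference: 3 of 12 were called lower (Eno2, Nefm and Rbfox3), and their sum was 8448 to 12836 CPM after MCAO and 14385 to 16754 CPM in sham. With that marker level as a covariate the Snhg11 difference was -0.42 (adjusted p of edgeR 0.483). The same covariate lowered the number of all genes called at day 7 from 698 to 10, so the lost call is not particular to Snhg11.

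Meg3, the member of the highest level, had 10746, 10797, 13509.6 and 13787 CPM in control, and its sham and MCAO ranges overlapped at every time. At 3 h it had 13303 to 14297 CPM in sham and 12202 to 13904 CPM after MCAO, at 12 h 9422 to 17029 and 8492 to 15000.1 CPM, and at 24 h 11709 to 13108 and 9889 to 11797 CPM. At day 3 sham had 11079.8 to 12229 CPM and MCAO 9018 to 12499 CPM. At day 7 sham had 12228, 13353, 13838 and 19980 CPM and MCAO 9688, 9768, 9879, 11556 and 12362 CPM, with 1 MCAO library above the lowest sham. The log2 difference from sham was -0.05, -0.08, -0.16, -0.20 and -0.48 ± 0.15 in time order (adjusted p of edgeR 0.0275 at day 7). Its mean was -0.20 ± 0.07 (adjusted p of edgeR 0.0366), and none of these was called. Sham at day 7 had the highest mean of the 11 groups (14849.5 CPM). The MCAO mean was 10034 CPM at day 3 and 10651 CPM at day 7. Against control the day 7 difference was -0.20 ± 0.15 (adjusted p of edgeR 0.583).

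Rian, transcribed on the same strand downstream of Meg3, ranged from 111 to 230.1 CPM over all libraries. Its group means lay between 141 ± 25.5 CPM (MCAO, day 3, n = 5) and 200.3 ± 30.5 CPM (sham, 24 h, n = 4). Log2 differences from sham were -0.03, 0.06, -0.20, -0.27 ± 0.13 and -0.10 in time order, with an adjusted p of 0.224 or more. The ratio of Rian to Meg3 differed at 1 time, day 7, where it was higher after MCAO by 0.36 on the log2 scale in 5 of 5 libraries (exact two-sided permutation p = 0.00794, the smallest possible, adjusted p = 0.0397). Its mean at day 7 was -6.06 ± 0.07 (SD) after MCAO and -6.42 ± 0.14 in sham, against -6.08 ± 0.08 in control. The sham mean of day 7 was the lowest of the 11 groups, and the MCAO mean of day 7 lay within the range of the 9 others (-6.17 to -5.97). At the other times the ratio differed between MCAO and sham by -0.07 to 0.14. None of the 6 genes of the Dlk1-Dio3 list was called in any MCAO comparison. Mirg, the miRNA host RNA beyond Rian, had differences of -0.27 to 0.18. Dlk1, the paternally expressed ligand of the domain, was uneven within groups, at 0 to 4.67 CPM in sham and 3.13 to 66.0 CPM after MCAO at day 7, with a difference of 3.77 (adjusted p = 0.0498). Dio3 and Rtl1 had means of 2.70 and 0.303 CPM, too low to compare.

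Miat had 148, 177, 203 and 232 CPM in control. At day 7 sham had 188, 217, 224 and 260.0 CPM and MCAO 115, 127, 129, 153 and 177 CPM, without overlap. The difference of -0.66 ± 0.21 had an adjusted p of 0.0309 (edgeR) and was not called. Sham at day 7 had the highest mean of the 11 groups (222 CPM). Against control the day 7 difference was -0.44 ± 0.21 (adjusted p of edgeR 0.292), with overlap. At earlier times the differences from sham were -0.22, -0.07, -0.27 and -0.17, with overlap at each. The lowest library of all was MCAO 24 h D with 62.9 CPM. That library also had the highest striatum marker sum of all, 4559 CPM. In the other MCAO libraries of 24 h, Miat had 131 CPM in A, 196 CPM in B and 219.9 CPM in C, with striatum sums of 2123, 489.8 and 301 CPM, the opposite order. These values were set side by side after they were seen, and the part of striatal tissue in the Miat differences was not tested. The mean over the times was -0.28 ± 0.09 (adjusted p = 0.0335).

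Counting groups without overlap, 3 members were apart at 3 h (Neat1, Gas5 and Snhg1, all higher after MCAO, 3.58% of all genes), 1 at 12 h (Gas5, higher, 3.29%) and 3 at 24 h (the same 3 as at 3 h, 5.83%). None was apart at day 3 (7.14%), where a single library of Neat1 crossed, and 3 were at day 7 (Neat1 higher, Miat and Snhg11 lower, 10.5%). Whether the MCAO effect differed between times was tested directly. The F test over the 5 times passed for 0 of 8 members at an adjusted p of 0.01 (0.491% of all genes), with the lowest values for Gas5 (0.0671), Snhg1 (0.168) and Snhg11 (0.23). None of the differences between consecutive times was called for any member, from 3 h to 12 h (0.01% of all genes), 12 h to 24 h (0.01%), 24 h to day 3 (0.01%) and day 3 to day 7 (0.0%). At an unadjusted p under 0.05, the last of these (16.2% of all genes) had 3 members, Neat1 (-1.10 ± 0.41), Snhg11 (-0.64 ± 0.24) and Gas5 (-0.46 ± 0.18), and the first 3 had 0 (7.12%, 5.08% and 8.82% of all genes).

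The comparisons with control share the same 4 control libraries. In them 0 members were called at 3 h (0.13% of all genes), 0 at 12 h (0.856%), 1 at 24 h (Gas5, 0.28%), 1 at day 3 (Neat1, 3.1%) and 0 at day 7 (1.5%). Neat1 differed from control by 0.92, 1.24, 1.13, 1.61 and 0.92 in time order, with an adjusted p of 0.0151 at 12 h and 0.000362 at day 3. Gas5 differed by 0.50, 0.54, 0.64, 0.40 and 0.06, and Snhg1 by 1.08, 0.80, 0.84, 0.48 and -0.04, in the same order. Surgery alone was examined by sham against control. None of the 8 members was called at 3 h (0.0% of all genes), 12 h (0.0351%), 24 h (0.01%), day 3 (0.0%) or day 7 (0.0%), and the lowest adjusted p was 0.578, of Snhg11 at day 7 (0.43 ± 0.18). That was the single member and time with an unadjusted p under 0.05, where 8.03% of all genes had one. The F test among the 6 groups without MCAO passed for 0 of 8 members as well (0.115% of all genes).

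Other brain long noncoding RNAs gave 19 tested genes of 24. H19, an imprinted RNA of fetal tissue, was called higher at day 3 and day 7 and was uneven within both groups. At day 3 MCAO libraries ran from 1.60 to 121 CPM (median 24.0), and their mean of 39.7 CPM was at least 30.1-fold higher than the floor of 3 counts per sham library, or 14.65-fold without replicate E. At day 7 they ran from 8.65 to 1080 CPM (median 26.3), at least 151-fold higher, or 12.4-fold without replicate C. Pantr1 (-1.05 ± 0.21) and Peg13 (-0.88 ± 0.20), a brain RNA of an imprinted cluster, were called lower after MCAO than in sham at day 7. For both genes sham at day 7 had the highest mean of the 11 groups (119.8 and 274.8 CPM). Their MCAO means at 12 h and 24 h were already near those of day 7. Neither gene was called against control at day 7. Marker lists of other cells in the tissue moved as follows against sham. Astrocyte markers were called higher for 1 of 9 at 12 h and 24 h, 2 at day 3 and 3 at day 7. Microglia and macrophage markers were called higher for 7 of 11 at day 7, and 1, P2ry12, lower at 12 h. Endothelial markers had 3 of 8 higher at day 3 and 1 lower at 12 h. Granulocyte markers had 2 of 7 higher at 12 h and at day 3, and oligodendrocyte markers 1 of 9 higher at day 7. Of 8 striatum and 6 choroid plexus markers, 0 were called in the 5 comparisons with sham.

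The genes most like each member over the 48 libraries, by Pearson's r of log2(CPM + 1) among 9879 genes with a mean of at least 10 CPM, are given as a description, since all genes of a library share its tissue piece and scaling. For Neat1 they were Tuba1c (0.848), Plek (0.842), a protein of blood and myeloid cells, and Litaf (0.834). For Snhg1 they were the heat shock genes Hspa1a (0.780) and Hspa1b (0.760), which are near-identical copies, and the metallothionein Mt2 (0.756). For Gas5 they were Mt1 (0.796), the snoRNP protein gene Nop58 (0.741) and Mrps6 (0.731). Snhg11 was most like Epb41l1 (0.876), Ddx24 (0.856) and Gabarapl1 (0.849), and Miat most like the neuronal transcription factor Mef2c (0.823), Mpped1 (0.818) and Sidt1 (0.815). Malat1 was most like Mphosph8 (0.766), Ccdc88a (0.752) and Tax1bp1 (0.751). Meg3 was most like Snhg11 itself (0.819), then Rabl6 (0.796) and Gjb6 (0.793). Rian was most like Gm37899 (0.738), an unclassified gene on the same strand beyond Rian (chr12:109668869-109677585), followed by 2210016L21Rik (0.651) and Rabl6 (0.649). Between members, Gas5 and Snhg1 had an r of 0.652, Meg3 and Rian 0.632 and Malat1 and Neat1 0.165.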

How the data were processed

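The study profiled brain tissue by 3′ RNA-seq (QuantSeq FWD, with ERCC spike-ins) in 48 libraries of 11 groups. Before deposit, the authors used TrimmomaticSE for trimming and SortMeRNA to take out ribosomal and mitochondrial reads, aligned the rest with STAR 2.5.2b to GRCm38 with the spike-ins and counted genes of Gencode vM8 with htseq-count in union mode. Each library has its own deposited table of unnormalized counts. The authors also deposited a DESeq2-normalized matrix on a log2 scale, used here only as an alternative. Alignments without a feature (21.6% to 31.3%), ambiguous (0.350% to 0.486%) or not unique (24.5% to 38.0%) and spike-ins (3.71% to 5.97% of gene and spike-in counts) stayed out of library sizes and tests. The series description speaks of 3 hemispheres per time, while the sample labels give at least 4 libraries a group.

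Symbols from Gencode vM21, on the same build, matched 46488 of 46983 identifiers. One fit of all 48 libraries without covariates (edgeR 4.0.16, TMM, glmQLFit and glmQLFTest, under R 4.3.3) covered the 19970 genes whose total count was over 10. The common biological coefficient of variation was 24.9%. Levels are TMM-normalized CPM, ratios are of raw counts, and folds against groups with at most 3 counts in every library are bounds from that floor, which covers counting error only. DESeq2 1.42.0 and limma 3.58.1 (on the deposited matrix) were alternatives, and relations and exact permutation tests were computed in Python 3.11.15 with scipy 1.17.1. The precision of each value follows from its counts, given in the report as a range per library.

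The members and gene lists were chosen with earlier results of these data known. Genes named besides the 8 members are the 3 most alike to each, the genes called against sham in a list (at most 4 a list) and the genes of the Dlk1-Dio3 domain, as well as those said to be chosen after their values were seen. The lists were markers of neurons, astrocytes, microglia and macrophages, oligodendrocytes, endothelium, granulocytes, striatum and choroid plexus, and genes of snoRNA hosts, other long noncoding RNAs, paraspeckles, nuclear speckles, nonsense-mediated decay, translation factors and the Dlk1-Dio3 domain. No library was left out. Libraries of the same letter did not deviate together over all pairs of groups. A pairing of MCAO with sham within a time was not tested.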

Additional observations from a re-analysis of the deposited data

Results flagged for a closer look

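Of 88 sets of member values in a group, 8 held a library far from the others by Dixon's test at 95%, where chance alone flags about 1 in 20. Malat1 had 14333 CPM in MCAO 3 h C, against 6668 to 8116 CPM in the other 4 libraries, and 5494 CPM in MCAO day 7 C, against 7499.8 to 7858 CPM. Neat1 had 61.9 CPM in sham 24 h D, against 90.4 to 96.2 CPM. Gas5 had 398 CPM in MCAO 3 h C (others 264 to 291 CPM), 369.6 CPM in MCAO day 3 C (258 to 269 CPM) and 258 CPM in MCAO day 7 B (208 to 222 CPM). Snhg1 had 25.9 CPM in control B (others 19.4 to 19.8 CPM) and 72.0 CPM in MCAO 12 h C (21.9 to 35.3 CPM). MCAO 3 h C was far from its group for both Malat1 and Gas5, and its share of alignments without a feature was 26.6%, the highest of its group. MCAO day 7 C had the highest microglia and macrophage marker sum of its group, 5592 CPM, and the lowest neuron marker sum, 8448 CPM.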

How the results depend on the processing

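The number of members called moved with the settings in every comparison with sham, with control or over the times other than MCAO against sham at 12 h, where it stayed at 0. Against sham at 3 h (0 called) it was 1 at an adjusted p under 0.05 with no fold minimum, with DESeq2, filterByExpr, no filter, the replicate block, the neuron covariate or the deposited matrix tested with limma, and 2 with only the groups compared in the fit. At 24 h (0) it was 1 at an adjusted p under 0.05 or with only the groups compared. At day 3 (1) it was 0 with the neuron covariate. At day 7 (1) it was 3 at an adjusted p under 0.05, and 0 with DESeq2 size factors, spike-in scaling, the replicate block, the neuron covariate or limma, and ranged from 0 to 1 without 1 library. Against control at 3 h (0) it was 1 at an adjusted p under 0.05, with DESeq2 or no filter, and 2 with only the groups compared. At 12 h (0) it was 2 at an adjusted p under 0.05 and 1 with DESeq2 or no filter, and 0 to 1 without 1 library, Neat1 gaining a call without MCAO 12 h A (1.39) or B (1.37). At 24 h (1) it was 0 with spike-ins or the neuron covariate, 2 with only the groups compared, and 0 to 1 without 1 library. With no filter it stayed at 1, but Gas5 lost its call (0.66, adjusted p = 0.0123) and Neat1 gained one (1.15, adjusted p = 0.00848). At day 3 (1) it was 2 at an adjusted p under 0.05 or with spike-ins and 0 with the neuron covariate, and at day 7 (0) it was 1 with only the groups compared. Over the times (2) it was 5 at an adjusted p under 0.05, 1 with spike-ins, the neuron covariate or limma, and 1 to 2 without 1 library. The cause was not tested.

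Signs turned only for differences that were not called. Under spike-in scaling the median of all genes ran from -0.28 to 0.14 over the comparisons. The differences that turned with it were Malat1 at 3 h (-0.0110) and over the times (-0.0203) and Snhg11 at 3 h (-0.00134) and 24 h (0.0514). Rian at 12 h (-0.0433) and Gas5 against control at day 7 (-0.0813) turned as well. With the neuron covariate they were Snhg11 at 24 h (0.0108) and day 3 (0.20), Malat1 at day 3 (0.16) and day 7 (0.17) and Gas5 against control at day 7 (-0.0258). With the share without a feature as a covariate they were Malat1 at 12 h (-0.0660), 24 h (-0.0178), day 3 (0.21) and day 7 (0.0847), and Snhg11 at 12 h (0.0059). Snhg11 also turned at 12 h with limma (0.0175) and at day 3 with the replicate block (0.0147). Without 1 library the differences ranged over 0 for Malat1 at 3 h (-0.14 to 0.21), 24 h (-0.15 to 0.23) and over the times (-0.00707 to 0.0754), Rian at 3 h (-0.11 to 0.00199) and 12 h (-0.00678 to 0.10), Meg3 (-0.21 to 0.0746), Miat (-0.21 to 0.0409) and Snhg11 (-0.28 to 0.17) at 12 h, Snhg11 at day 3 (-0.0975 to 0.0317), and Snhg1 at day 7 against sham (-0.22 to 0.0722) and control (-0.10 to 0.0705). The log2 ratio of Rian to Meg3 did so at 3 h (-0.0484 to 0.0561), 24 h (-0.12 to 0.0640) and day 3 (-0.16 to 0.000286), and its difference in medians at 3 h was -0.0513. As medians, the Neat1 to Malat1 ratio at 3 h was 1.23 and the Rian to Meg3 ratio at day 7 0.34 (exact permutation adjusted p = 0.127 for each). Without 1 library they were 0.94 to 1.20 and 0.29 to 0.40 with adjusted p of 0.0714, since fewer splits remain.

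Over all pairs of groups, same-letter libraries did not deviate together (median r of 0.008 over 226 pairs, -0.51 to 0.64, and 9 of 48 best with their own letter). Pairs of MCAO and sham of the same time were not examined apart, so a pairing within a time was not tested. With the replicate block Snhg11 at day 7 was -0.61 (adjusted p of edgeR 0.0143) and Snhg1 at 3 h 1.23 (adjusted p of edgeR 0.00929). Over the settings other than leaving out a library, the number of all genes called ranged from 14 to 85 at 3 h, 29 to 277 at 12 h, 12 to 111 at 24 h, 51 to 1643 at day 3 and 10 to 1845 at day 7, and from 305 to 2853 over the times. The lowest numbers at 24 h, day 3, day 7 and over the times were those with the neuron covariate. Plain or spike-in scaling moved 9 of 176 group levels by more than their SD. No alternatives were run for sham against control and the F tests. At 25 to 140 counts a library, small differences of Snhg1 were not detectable.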
